A study of Mus musculus with 8 samples.

Results

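Bidirectional lncRNAs are long noncoding RNAs that start close to the start of a protein-coding gene and run away from it on the opposite strand. The members described here were the lncRNA entries that the deposited table classes as bidirectional and lists at 200 nt or longer, 1 row for each transcript identifier, without the entries of Gas5 and the Snhg genes. Of 31549 lncRNA identifiers, 1527 were classed as bidirectional, 48 of them were shorter than 200 nt and 25 belonged to Gas5 or a Snhg gene, which left 1454 members. The table names 1026 neighbour genes for them, of which 1021 were found in the mRNA table, so that 1448 members had a measured neighbour and 6 did not.

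According to the methods of the study, the RNA came from extracellular vesicles (EVs), which are membrane-bound particles that cells release. These vesicles are described as isolated from left ventricles of male C57BL/6J mice aged 10 weeks. The IR group had 4 mice in which the left anterior descending coronary artery was tied for 45 min and then reopened for 24 h, and the sham group had 4 sham-operated mice, with 1 library per mouse. No transgene or deletion is named for either group. All ventricles were digested with type II collagenase and the vesicles were pelleted by ultracentrifugation of a supernatant that slower spins had cleared of tissue, cells and larger particles.

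Levels are given in FPKM (fragments scaled to transcript length and library size), as mean ± SD of the 4 libraries of a group. Libraries held 13824441 to 22497260 estimated fragments on mRNAs and 805140 to 1842826 on lncRNAs. The tissue label was checked against markers. The summed level of 10 cardiomyocyte markers was between 2.62 and 3.33 FPKM in sham and between 1.21 and 2.61 FPKM in IR, with Myl2, Nppa, Mb and Csrp3 listed at 0 in all 8. The summed level of 10 enterocyte markers, none of them at 0, was between 19511 and 24745 FPKM in sham and between 22136 and 33694 FPKM in IR. The defining markers of heart muscle were therefore absent or near 0 in libraries labelled as cardiac EVs, and those of intestinal epithelium were abundant. Sums of the T and NK cell markers (7 of 7 measured, none at 0) were 71.8 to 249.98 FPKM in sham and 159 to 392 FPKM in IR. Those of the smooth muscle markers (3 of 3, none at 0) were 197 to 243 and 103 to 181 FPKM, so the smooth muscle sums of the groups did not overlap. The part of these cell types in the results below was not tested, and a smaller number of vesicles from a cell type cannot be told apart from less RNA per vesicle.

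Many mammalian promoters are bidirectional. RNA polymerase II complexes assemble back to back in 1 nucleosome-poor stretch and transcribe the gene on one strand and a second RNA, often short-lived and of low level, on the other. Such promoters are typically rich in GC bases and in CpG dinucleotides, often lack a TATA box, and are common at housekeeping genes and at developmental regulators. A few bidirectional partners are themselves abundant structural RNAs made by RNA polymerase III, among them the RNA of RNase P (Rpph1), the RNA of RNase MRP (Rmrp) and the 7SL RNA of the signal recognition particle.

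The stretch between both start sites is the sequence that a bidirectional pair shares, and 8 of these are shown for pairs whose values are described below. Each runs from the first base of the lncRNA to the first base of the neighbour gene, on the strand of the gene (for Rmrp and NR_027923, whose start sites are farther apart, the first 300 bases counted from the lncRNA start). Capitals mark matches, on either strand, to the CCAAT box (CCAAT), the GC box (GGGCGG), an ETS site (CCGGAAG), the TATA box (TATAAA) and the octamer (ATGCAAAT), none of which overlapped in these stretches. Bases were read from mm10, and the strand is plus for Rpph1, Rmrp, 2_00001168 and TCONS_00000487 and minus for the others.
Rpph1 to Parp2, chr14:50807767-50807946: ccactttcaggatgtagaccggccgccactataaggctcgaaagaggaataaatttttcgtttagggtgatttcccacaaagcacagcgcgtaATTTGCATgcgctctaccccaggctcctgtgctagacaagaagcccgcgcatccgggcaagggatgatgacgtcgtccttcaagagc
Rmrp to Ccdc107, chr4:43493058-43493357: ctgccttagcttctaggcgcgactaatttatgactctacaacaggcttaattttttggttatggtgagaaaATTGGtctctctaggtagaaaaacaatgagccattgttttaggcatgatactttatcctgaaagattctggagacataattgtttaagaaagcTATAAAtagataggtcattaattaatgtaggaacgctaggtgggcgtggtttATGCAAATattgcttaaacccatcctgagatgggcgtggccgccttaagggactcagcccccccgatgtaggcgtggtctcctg
AK143604 to Cdkl4, chr17:80563834-80564028: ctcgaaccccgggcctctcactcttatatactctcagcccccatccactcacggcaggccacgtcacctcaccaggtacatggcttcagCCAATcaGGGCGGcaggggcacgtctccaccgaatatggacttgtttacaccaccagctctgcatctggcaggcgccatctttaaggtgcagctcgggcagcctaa
2_00001168 to Tpp2, chr1:43933900-43934007: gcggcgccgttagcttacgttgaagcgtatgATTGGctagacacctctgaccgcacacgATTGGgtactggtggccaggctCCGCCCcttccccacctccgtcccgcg
AK089624 to Tbrg4, chr11:6626067-6626135: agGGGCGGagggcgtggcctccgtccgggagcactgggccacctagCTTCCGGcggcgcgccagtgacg
TCONS_00000487 to Ivns1abp, chr1:151344345-151344498: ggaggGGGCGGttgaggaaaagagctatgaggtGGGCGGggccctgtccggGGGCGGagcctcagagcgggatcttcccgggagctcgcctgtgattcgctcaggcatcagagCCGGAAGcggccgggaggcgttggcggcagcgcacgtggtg
ENSMUST00000176296 to Cct8, chr16:87495788-87495999: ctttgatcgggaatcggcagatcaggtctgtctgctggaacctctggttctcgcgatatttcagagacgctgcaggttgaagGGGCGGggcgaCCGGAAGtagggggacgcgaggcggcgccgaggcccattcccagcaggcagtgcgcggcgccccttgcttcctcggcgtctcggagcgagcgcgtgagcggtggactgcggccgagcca
NR_027923 to Tle1, chr4:72200945-72201244: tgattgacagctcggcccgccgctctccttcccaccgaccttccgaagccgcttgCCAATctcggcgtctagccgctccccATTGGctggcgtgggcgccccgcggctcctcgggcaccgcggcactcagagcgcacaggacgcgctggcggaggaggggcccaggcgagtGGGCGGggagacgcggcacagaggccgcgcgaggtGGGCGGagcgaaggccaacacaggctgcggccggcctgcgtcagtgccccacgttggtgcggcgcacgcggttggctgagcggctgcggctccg

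These stretches fall into 3 kinds by their letters. The stretches of the Ivns1abp, Cct8 and Tbrg4 pairs held both a GC box and an ETS match, and their GC content was 70.1%, 67.0% and 76.8%. Those of the Cdkl4, Tpp2 and Tle1 pairs held CCAAT and GC boxes without an ETS match. Those beside the polymerase III genes Rpph1 and Rmrp held neither a GC box nor an ETS match but an octamer, and their GC content was 52.8% and 42.3%. The Rmrp stretch also held a match to the TATA box.

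Nearly all members with a position started within 1000 bp of the start of their neighbour. All 1454 were listed on the strand opposite to their neighbour, and a position could be assigned to 1326 of them (530 from GENCODE M21, 157 from RefSeq and 639 from the locus of the table). The locus was used only where it lay outside the neighbour gene, so the members placed by it could not show an overlap. The 128 members left without a position were those whose locus overlapped the gene. The median distance between the start sites was 200.5 bp (quartiles 107 and 356 bp). The distance was within 100 bp in 21.5%, within 300 bp in 68.9% and within 1000 bp in 99.8% of them. In 4 pairs the transcripts overlapped at their starts, and 2 pairs were more than 1000 bp apart. Members that were expressed enough to be tested had a median distance of 203 bp and the others 197.5 bp.

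**Figure D1:**
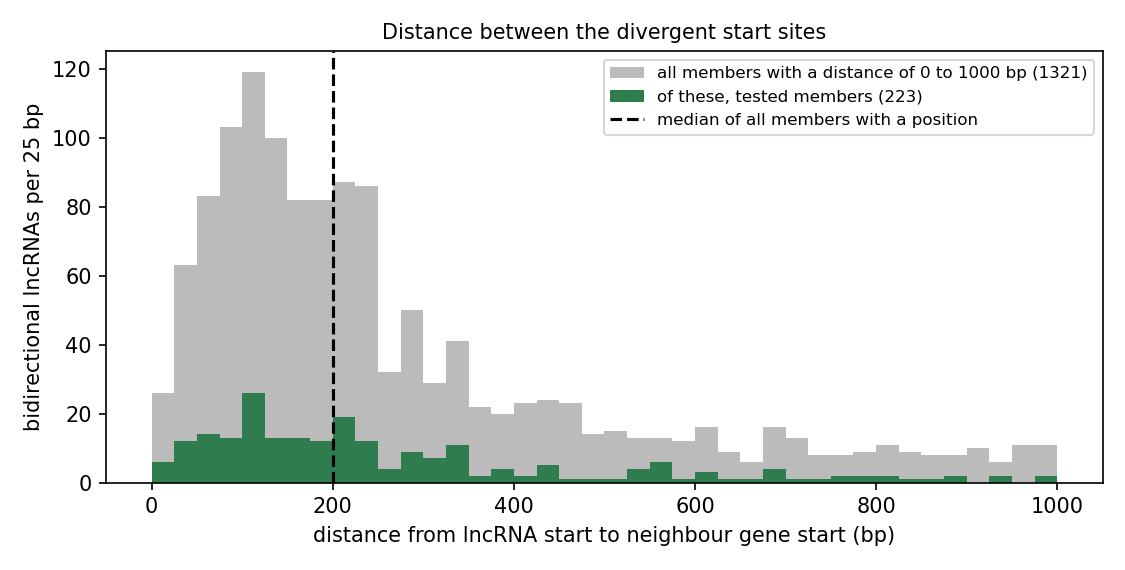
Distance from the start of each bidirectional lncRNA to the start of its neighbour gene in bp (x axis) and the number of lncRNAs in each bin (y axis), for members with a distance of 0 to 1000 bp. Grey bars stand for all of these and green bars for the tested ones among them, and the dashed line marks the median of 200.5 bp. Most members lie within 300 bp (68.9%).

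The sequence around the lncRNA starts was richer in GC in the members than in the other lncRNA classes shown. In windows of 300 bases (250 before and 50 after the annotated start), 605 distinct windows of members had a median GC content of 65.0%, against 53.7% in 1608 windows of natural antisense, 49.3% in 1163 of intronic antisense and 48.3% in 3006 of intergenic lncRNAs. The median ratio of observed to expected CpG was 0.824, against 0.391, 0.248 and 0.251. A ratio over 0.6, a usual criterion for a CpG island, was found in 77.9% of the member windows and in 25.9% of all 7305 windows. The windows came from 687 members with an Ensembl or RefSeq identifier. The rule did not use base composition, but the class it used places members near the start of a gene. Promoters of genes in general were not compared, so nothing beyond this closeness is shown. Windows within 1 promoter overlap and are not independent, so the shares are given without a test.

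Short motifs followed the base composition in part. A GC box was found in 67.9% of the member windows and 26.2% of all windows, and an ETS match in 15.5% and 6.72%. An ETS match was found in 27.2% of the 103 windows of tested members. A TATA box was rarer in the member windows, at 4.63% against 12.8% of all, and CCAAT was about as frequent, at 37.4% against 36.7%. The cyclic AMP response element (TGACGTCA) was found in 4.46% and 1.78%, and the NRF1 motif in 1.65% and 0.424%. Among the windows of tested members the response element was found in 1.94% and the NRF1 motif in 1.94%. The octamer was found in 2.48% of the member windows, in 5.83% of those of tested members and in 1.59% of all. Rpph1 and Rmrp each have 2 tested entries with starts a few bases apart, which count as separate windows in this share. A match describes the letters of a window and not a bound factor.

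**Figure D2:**
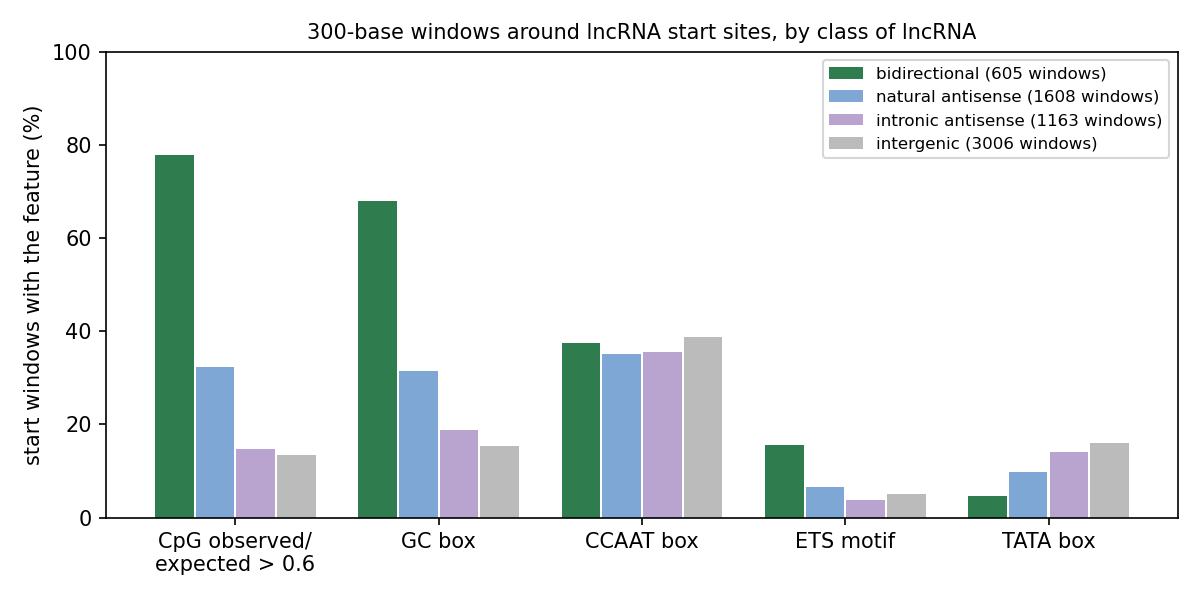
Sequence composition of the 300-base windows around lncRNA starts by class. The y axis gives the percentage of windows with a CpG ratio over 0.6 and with each motif, and the bars stand for the classes. The bidirectional members stand highest for CpG ratio (77.9%), GC box (67.9%) and ETS (15.5%) and lowest for the TATA box (4.63%).

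Most members were close to the limit of detection. In 280 of the 1454 the level was listed at 0 in every library, 546 were above 0 in some libraries and 628 in all 8. A mean of at least 0.5 FPKM over the 8 libraries, the minimum set for a test, was reached by 245 members (16.9%), against 9.79% of all lncRNAs. A member can reach this minimum through its higher group alone. Among the members described below, 2_00001168 and AK014131 lay under 0.5 FPKM in every sham library. ENSMUST00000140069 was near 0 in every IR library. For such entries the difference between the groups also affected whether they were tested. The minimum itself does not use the group labels. Just below it lay AK080666 beside Rnf4 (0.498 FPKM), AK155494 beside P4hb (0.498 FPKM) and AK145274 beside Snf8 (0.499 FPKM), and just above it ENSMUST00000148230 beside Gpr107 (0.501 FPKM), ENSMUST00000123517 beside Prmt1 (0.509 FPKM) and AK035482 beside Kazald1 (0.517 FPKM). Among the tested members 127 were under 1 FPKM, 104 between 1 and 5 FPKM and 14 at or above 5 FPKM, and 5 exceeded 100 FPKM. Their median level was 0.965 FPKM against 1.40 FPKM for all tested lncRNAs. A tested member rested on a median of 190 fragments summed over the 8 libraries, and 55 rested on fewer than 80.

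Members are spread unevenly over the neighbours. A single lncRNA entry was listed for 780 neighbour genes and several for 246. The most, 27, belonged to Smad7, the inhibitory SMAD of the TGF-β pathway, and none of them reached 0.5 FPKM. Of 12 entries beside Mettl4 none was tested, and of 8 beside Kif21b 1 was. Entries of 1 neighbour share sequence, so the assignment of fragments between them is uncertain and they do not count as separate loci.

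The highest members were RNAs of polymerase III. The main entry of Rpph1 (ENSMUST00000175096, 319 nt), the catalytic RNA of RNase P that trims the 5′ ends of tRNA precursors, starts 179 bp from Parp2, which encodes a poly(ADP-ribose) polymerase of DNA repair. Rpph1 was at 18861, 14761, 16024 and 16179.5 FPKM in sham 1 to 4 and at 15125, 12693, 13550.2 and 12234 FPKM in IR 1 to 4. The groups overlapped, since IR 1 lay above sham 2. The level was 16456 ± 1724 FPKM in sham and 13400.4 ± 1272 FPKM in IR (n = 4 each), with a log2 fold change of −0.17 ± 0.13 (SE) after scaling, which did not pass the edgeR test (adjusted p = 0.833).

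Rmrp (ENSMUST00000157463, 271 nt), the RNA of RNase MRP that cleaves precursor rRNA, starts 331 bp from Ccdc107, a coiled-coil protein gene. Its level was 16577, 12843, 15466 and 17026 FPKM in sham 1 to 4 and 14472, 11226, 12968 and 13044 FPKM in IR 1 to 4. Here too the groups overlapped, with sham 2 below 3 of the IR libraries, and the log2 fold change was −0.14 ± 0.13 (edgeR, adjusted p = 0.868). Ccdc107 itself was at 22.2, 23.9, 28.3 and 25.6 FPKM in sham and 19.2, 16.1, 19.4 and 21.5 FPKM in IR. All IR libraries lay below all sham libraries, with a log2 fold change of −0.32 ± 0.13 (edgeR, adjusted p = 0.492).

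The third of these RNAs was a 7SL RNA of the signal recognition particle (Metazoa_SRP, ENSMUST00000174924, 300 nt), 109 bp from the ribosomal protein gene Rps29. It was at 3188, 3125, 6608 and 5728 FPKM in sham 1 to 4 and at 3087, 3189, 2618 and 2785 FPKM in IR 1 to 4. Sham 3 and sham 4 were well above the remaining 6 libraries, which lay close together. The log2 fold change was −0.57 ± 0.28 (edgeR, adjusted p = 0.726), and it was −0.34 without sham 3. Rps29 was at 403 ± 50.9 FPKM in sham and 314 ± 74.0 FPKM in IR, with a log2 fold change of −0.26 (edgeR, adjusted p = 0.549). 7SL RNA has many near-identical copies in the genome, so the reads of this entry are uncertain.

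A second entry of each gene took part of the reads. The RefSeq entry of Rpph1 (NR_002142, 325 nt) was at 1155, 747, 769.9 and 695 FPKM in sham and 571, 468, 691 and 665 FPKM in IR. All IR values lay below all sham values, and the log2 fold change was −0.37 ± 0.18 (edgeR, adjusted p = 0.726). With both Rpph1 entries summed it was −0.18 (edgeR, adjusted p = 0.820), and with both Rmrp entries summed −0.14 (edgeR, adjusted p = 0.855). These 5 entries held 84.7 to 89.1% of the fragments on members and 4.50 to 9.79% of all lncRNA fragments. FPKM and fragments weigh such short RNAs differently. In the main entries of Rpph1 and Rmrp and the 7SL entry, 1 fragment per kilobase was worth 1.902 to 2.41 times as much FPKM as in lncRNAs over 3000 nt.

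Behind them the levels dropped steeply. XLOC_008516 (2_00014575), 397 bp from the fatty acid oxidation gene Acaa2, was at 20.8 ± 3.47 FPKM in sham and 16.2 ± 2.99 FPKM in IR. Tug1 (NR_002321), a widely expressed lncRNA 945 bp from Morc2a, was at 21.01, 17.9, 15.3 and 20.1 FPKM in sham and 20.9, 13.2, 18.8 and 16.6 FPKM in IR. Tug1 thus overlapped fully between the groups, with a log2 fold change of 0.00 ± 0.17 (edgeR, adjusted p = 0.999). An entry beside Pigb (ENSMUST00000184126, 19 bp away) was at 9.83 ± 1.32 and 10.1 ± 1.28 FPKM, one beside 1810009A15Rik (NR_027866) at 11.1 ± 2.70 and 7.99 ± 3.16 FPKM, and one beside Rab30 (ENSMUST00000147198) at 6.41 ± 0.857 and 5.67 ± 0.570 FPKM. None of these 5 entries passed the test (edgeR, adjusted p of 0.828 or more).

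**Figure D3:**
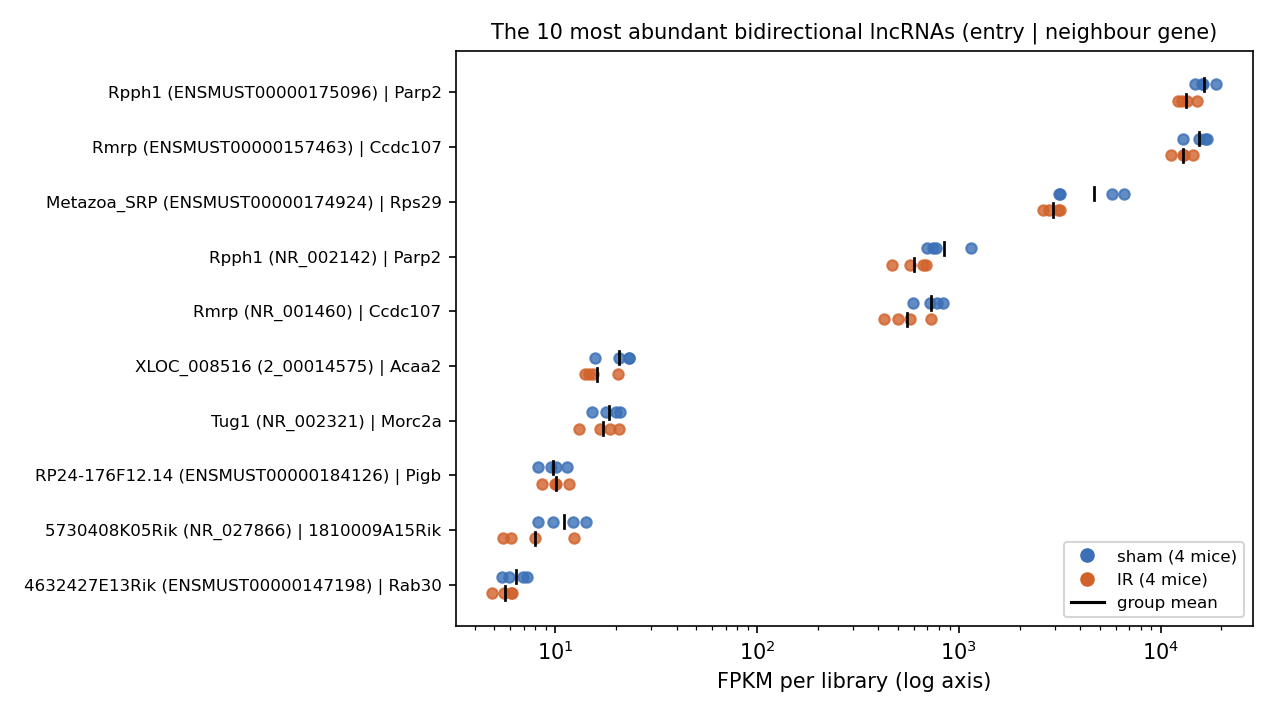
FPKM (log axis) of the 10 bidirectional lncRNAs with the highest mean level in each library, with sham and IR libraries as points and group means as short black lines. The Rpph1 and Rmrp main entries lie between 11226 and 18861 FPKM in every library, and the points of both groups overlap in 9 of the 10, the exception being NR_002142.

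No member passed the test for a difference between IR and sham. At an adjusted p under 0.05 with a fold change over 2, edgeR called 0 members higher and 0 lower, as it did among all 3088 lncRNAs tested (background 0). The smallest adjusted p of a member was 0.366. At an unadjusted p under 0.05, 12 of 245 members (4.90%) differed against 7.06% of all lncRNAs, 7 of them higher in IR (background 4.31%) and 5 lower (background 2.75%). With a fold change over 2 as well, 4 were higher (background 1.78%) and 1 was lower (background 0.810%). DESeq2 called 2 members higher, AK143604 and ENSMUST00000098305 (background 0.389%), and none lower (background 0.0972%). The IR and sham values did not overlap in 5 members with IR above (background 1.94%) and in 6 with IR below (background 2.88%). The members' shares were thus near the background throughout. Of all 245, 111 had a fold change above 0 and 134 below, and their median log2 fold change was −0.04 against 0.01 over all lncRNAs.

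The member with the smallest p was AK143604 (2281 nt, chr17:80564028-80566308), which starts 194 bp from Cdkl4, a kinase gene of the cyclin-dependent kinase-like family. It was at 0.696, 1.10, 0.669 and 0.872 FPKM in sham and 2.87, 1.25, 2.24 and 2.33 FPKM in IR. No sham value reached an IR value, although IR 2 was close to sham 2. The log2 fold change was 1.47 ± 0.29 (edgeR, adjusted p = 0.366), and DESeq2 gave an adjusted p of 0.00709. Cdkl4 was at 0.0566 ± 0.0244 FPKM in sham and 0.0941 ± 0.0625 FPKM in IR, too low for a test, so this lncRNA was the more abundant partner of its pair.

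AK014131, 338 bp from Pde7a, a phosphodiesterase that breaks down cyclic AMP, was at 0.358, 0.441, 0.409 and 0.417 FPKM in sham and 0.846, 0.633, 0.722 and 1.26 FPKM in IR. The groups were separate and the sham values were close together. Its log2 fold change was 1.15 ± 0.24 (edgeR, adjusted p = 0.369). Pde7a was at 11.03, 9.69, 7.17 and 10.3 FPKM in sham and 12.1, 11.4, 9.11 and 11.3 FPKM in IR, which overlapped, with a log2 fold change of 0.32 ± 0.12 (edgeR, adjusted p = 0.467). AK014131 and its neighbour were thus both higher at an unadjusted p under 0.05, which in the other direction held only for AK089624 and Tbrg4 among the 239 pairs.

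The 2_00001168 entry (XLOC_000691) beside Tpp2, the gene of a large cytosolic peptidase, was at 0.206, 0.206, 0.288 and 0.322 FPKM in sham and 0.893, 1.04, 0.638 and 0.658 FPKM in IR. These separate groups rest on 1 to 6 fragments in each library. The log2 fold change was 1.66 ± 0.51 (edgeR, adjusted p = 0.690), while that of Tpp2, which overlapped between the groups, was −0.04. Gm9903 (ENSMUST00000181102) beside Fam53a was at 0.516 ± 0.156 FPKM in sham and 0.806 ± 0.170 FPKM in IR, with separate groups and a log2 fold change of 0.73 (edgeR, adjusted p = 0.699).

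Among the members with lower values in IR, AK030286 had the smallest p. It starts 228 bp from Etf1, which encodes the factor that ends translation at stop codons. AK030286 was at 2.98, 2.69, 2.34 and 2.99 FPKM in sham and 1.80, 1.68, 1.72 and 1.97 FPKM in IR. All IR values lay below all sham values, and both groups were tight. The log2 fold change was −0.52 ± 0.13 (edgeR, adjusted p = 0.451), and that of Etf1 was −0.19 ± 0.11 (edgeR, adjusted p = 0.570).

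ENSMUST00000150145 beside Taf4a, a subunit gene of the general transcription factor TFIID, was at 1.39, 1.03, 0.877 and 0.964 FPKM in sham and 0.531, 0.454, 0.696 and 0.858 FPKM in IR. The groups did not overlap, but IR 4 was close to sham 3. Its log2 fold change was −0.65 (edgeR, adjusted p = 0.699) and that of Taf4a 0.05. AK089624, 68 bp from Tbrg4, a gene of mitochondrial RNA metabolism, had a log2 fold change of −0.62 (edgeR, adjusted p = 0.699), which was −0.12 (edgeR, adjusted p = 0.975) when the other entry at that gene was added. NR_027923 beside Tle1, a corepressor gene, was at 2.66, 1.42, 2.36 and 2.53 FPKM in sham and 1.68, 1.05, 1.36 and 1.78 FPKM in IR, so the groups overlapped through sham 2. Its log2 fold change was −0.53 (edgeR, adjusted p = 0.699), and that of Tle1 was 0.08 (edgeR, adjusted p = 0.933).

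A further 3 members stood on the target list of the study, which was drawn up from these libraries and gives no independent evidence. AK142369 beside Cherp was at 0.559 ± 0.130 FPKM in sham and 0.313 ± 0.0836 FPKM in IR, with all IR values below all sham values, and its mean was too low for a test. TCONS_00000487 beside Ivns1abp was at 1.41, 1.41, 3.43 and 3.27 FPKM in sham and 0.760, 0, 1.08 and 1.85 FPKM in IR, from 0 to 14 fragments in a library, and the groups overlapped (log2 fold change −1.31, edgeR, adjusted p = 0.764). ENSMUST00000176296 beside Cct8, a subunit of the TRiC chaperonin, was at 0.513 ± 0.0756 and 0.268 ± 0.148 FPKM. The 3 entries beside Cct8 summed to 30, 25, 31 and 29 fragments in sham and 9, 9, 8 and 19 in IR. Their sum was thus lower in every IR library, with a log2 fold change of −1.03 ± 0.32 (edgeR, adjusted p = 0.694). AK143604, AK014131, AK030286, NR_027923, ENSMUST00000174924 and ENSMUST00000098305, described in other paragraphs, were on the target list too. For NR_027923 (lower in IR) and ENSMUST00000098305 (higher in IR) the paper also reports RT-qPCR, with significant differences in these directions. Those measurements are separate from the sequencing values given here and were not re-examined.

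At Rab30 and Sap30l several entries of 1 locus were high in different libraries. Rab30 encodes a Golgi GTPase and has 5 bidirectional entries. ENSMUST00000098305 held 5 fragments in each of 6 libraries, 421 in IR 2 and 356 in IR 4, which gave a log2 fold change of 5.46 ± 1.499 (edgeR, adjusted p = 0.603). The overlapping entry uc029wmy.1 held 291 to 654 fragments in those 6 libraries, 0 in IR 2 and 2 in IR 4. The libraries that were high for one entry were therefore the ones without the other. The sum of the 5 entries was 14.98, 11.9, 10.98 and 14.6 FPKM in sham and 10.3, 12.01, 10.7 and 11.9 FPKM in IR, with overlapping groups and a log2 fold change of −0.11 ± 0.12 (edgeR, adjusted p = 0.897). Rab30 itself varied widely within both groups, from 13.1 to 37.2 FPKM in sham and from 11.7 to 71.9 FPKM in IR, and its highest value was in IR 2.

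Sap30l, a subunit gene of a histone deacetylase complex, has 4 entries. ENSMUST00000140069 held 0, 5, 9 and 19 fragments in sham and 0 in every IR library. With fragments pooled over the mice of a group and 3 fragments set as the floor for IR, sham was 8.75-fold higher. This ratio does not take in the spread between mice, since 19 of the 33 sham fragments were in sham 4 and sham 1 was at 0. The difference did not pass the test (edgeR, adjusted p = 0.699). Summed, the 4 entries gave 11.4 ± 3.30 FPKM in sham and 10.5 ± 2.23 FPKM in IR, with a log2 fold change of −0.0035 ± 0.252 (edgeR, adjusted p = 0.999). When the members of each gene were summed before the test, 0 of 232 loci were called and 11 (4.74%) had an unadjusted p under 0.05 (background 7.06% of all lncRNAs, not summed).

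**Figure D4:**
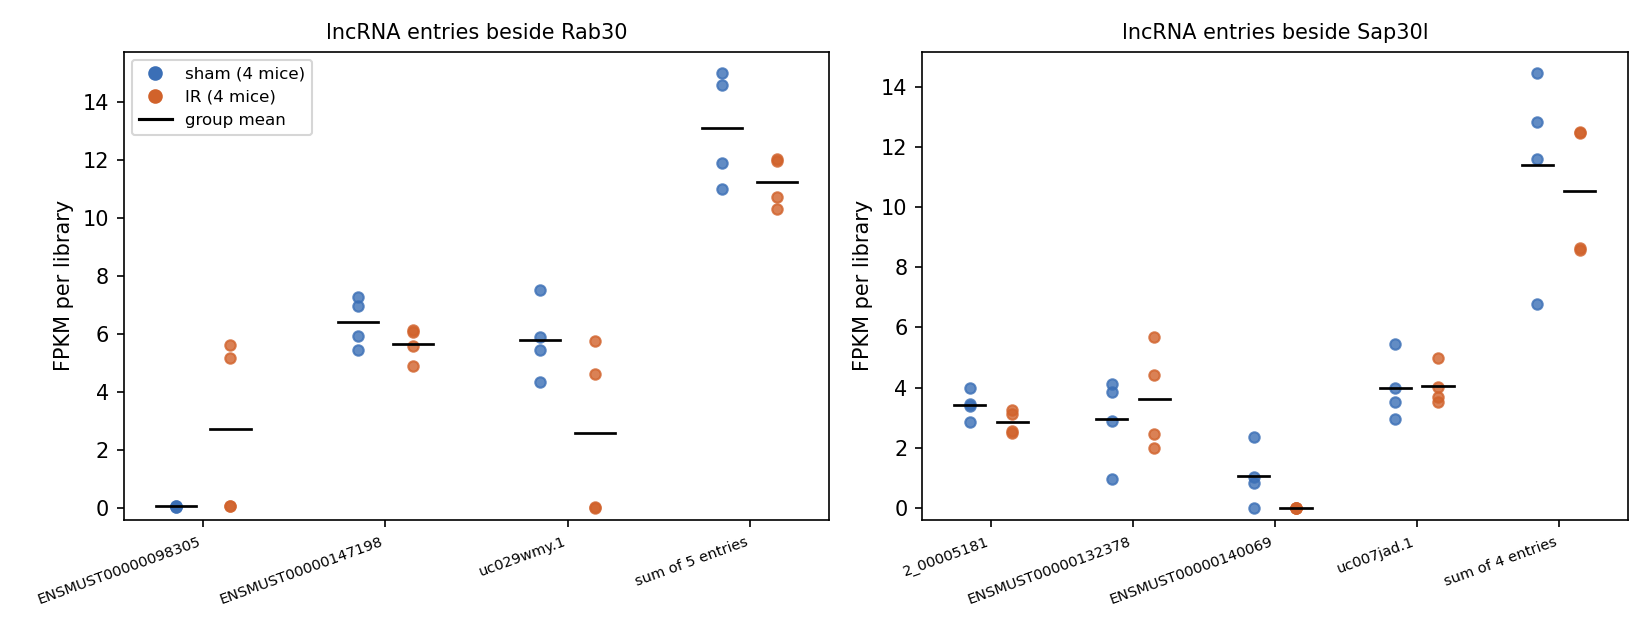
FPKM in each library (y axis) of the tested bidirectional entries beside Rab30 (left) and beside Sap30l (right), and of the sum over all entries of the locus, with sham and IR libraries as points and group means as black lines. Beside Rab30, ENSMUST00000098305 is at 5.19 FPKM in IR 2 and 5.62 FPKM in IR 4 and near 0 in the other libraries, and the sums of both groups overlap.

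The better known members were little represented. Of 3 Tug1 entries only NR_002321 was above 1 FPKM. The entry ENSMUST00000144852, whose annotated ends lie within 10 bp of those of NR_002321, held 1.22% of its level in every library, so the split between both is not a separate measurement. Gm15441 beside Txnip, the thioredoxin-binding protein of glucose sensing, was at 0.229 ± 0.153 and 0.278 ± 0.302 FPKM, and Txnip at 138 ± 33.2 and 129 ± 23.95 FPKM. Foxd2os was at 0.0514 and 0.0518 FPKM. The entries of Hoxa11os (3), Vax2os (4) and Emx2os (1), partners of homeobox genes of limb, eye, brain and urogenital development, were listed at 0 in all 8 libraries. Hoxa11 and Emx2 were listed at 0 too, Vax2 was above 0 only in IR 4 (0.0537 FPKM), and Foxd2 was at 0.0855 FPKM or less.

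The neighbour genes were much more abundant than the lncRNAs. Their median level was 8.18 FPKM against 1.23 FPKM for all mRNAs, and 808 of 1021 (79.1%) reached 0.5 FPKM against 56.6% of all mRNAs. In 230 of the 239 pairs with both partners tested (96.2%) the gene was the higher partner, by a median ratio of 16.7. The exceptions were the 5 entries of the polymerase III RNAs, Tug1 (17.97 FPKM against 8.11 FPKM for Morc2a), ENSMUST00000184126 (9.97 FPKM against 4.37 FPKM for Pigb), ENSMUST00000130392 (1.53 FPKM against 1.08 FPKM for Fbxo48) and uc007ghs.1 (0.967 FPKM against 0.863 FPKM for 4930404N11Rik). The gene was likewise higher in 96.3% of intron sense-overlapping, 91.9% of exon sense-overlapping, 90.9% of intronic antisense and 90.2% of natural antisense pairs. Pairs whose gene lay under 0.5 FPKM, such as AK143604 and Cdkl4, are not in these counts. Across the bidirectional pairs the log2 levels of both partners had a correlation of 0.06. In the other classes it was 0.46 for exon sense-overlapping, 0.27 for intron sense-overlapping, 0.0073 for intronic antisense and −0.04 for natural antisense pairs. These are descriptions over transcripts that share libraries, and a sense-overlapping lncRNA also shares exons with its gene.

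No neighbour gene passed the test between IR and sham either. With edgeR 0 were called higher and 0 lower (background 0 of 12716 mRNAs), and the smallest adjusted p was 0.454. At an unadjusted p under 0.05, 67 of 808 (8.29%) differed against 9.73% of all mRNAs, with 28 higher (background 4.87%) and 39 lower (background 4.86%). With a fold change over 2 as well, 5 were higher (background 1.19%) and 2 lower (background 0.472%). DESeq2 called Sypl2 higher (background 0.244%) and Gm21685 lower (background 0.0708%). All IR values lay above the sham values in 12 neighbours (background 0.873%) and below them in 38 (background 4.37%). Their median log2 fold change was 0.00, as it was over all mRNAs.

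The neighbours with the smallest p and higher values in IR were of mixed function. Mfsd7a, a transporter-family gene, was at 2.33, 1.98, 1.76 and 1.81 FPKM in sham and 2.59, 2.45, 2.85 and 3.07 FPKM in IR, with separate groups and a log2 fold change of 0.58 ± 0.14 (edgeR, adjusted p = 0.454). Sypl2, which encodes a membrane protein of the synaptophysin family, was at 1.12, 1.75, 1.26 and 1.61 FPKM in sham and 2.03, 4.35, 2.03 and 1.86 FPKM in IR. Its groups were separate and IR 2 stood far above the rest, and the log2 fold change of 1.08 ± 0.27 (edgeR, adjusted p = 0.454) was 0.75 without IR 2. Tesc, the gene of the calcium-binding protein tescalcin, was at 0.355 ± 0.150 FPKM in sham and 0.836 ± 0.152 FPKM in IR, also without overlap (log2 fold change 1.303, edgeR, adjusted p = 0.454). Ccbe1, a factor of lymphatic growth, and Tinag, a basement membrane protein, had log2 fold changes of 0.53 and 0.43 (edgeR, adjusted p of 0.454 for both).

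Among the neighbours with lower values in IR was Rbm3, a cold-inducible RNA-binding protein. It was at 96.2, 80.4, 79.2 and 90.7 FPKM in sham and 61.0, 31.4, 40.5 and 68.3 FPKM in IR. The groups did not overlap, and IR 2 and IR 3 were the lowest. The log2 fold change was −0.65 ± 0.18 (edgeR, adjusted p = 0.454). Gm21685, a predicted gene, was at 2.98, 0.662, 1.45 and 2.67 FPKM in sham and 0.641, 0.362, 0.369 and 0.370 FPKM in IR, where the lowest sham and the highest IR value nearly touched (log2 fold change −2.13 ± 0.47, edgeR, adjusted p = 0.454). Pde12, a phosphodiesterase that degrades 2′-5′ oligoadenylates, was at 4.74 ± 0.719 FPKM in sham and 3.41 ± 0.331 FPKM in IR without overlap (log2 fold change −0.37, edgeR, adjusted p = 0.454). Paqr8, a membrane progestin receptor gene, and Gcdh, an enzyme of lysine breakdown, had log2 fold changes of −1.02 and −0.43 (edgeR, adjusted p of 0.454 for both).

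The neighbours were also grouped by role, with lists that match the first letters of gene names. A list can therefore hold genes outside its family, and Tsga10 (testis specific 10) was matched to vesicle traffic in this way. Of 6 cytosolic ribosomal protein genes beside a bidirectional lncRNA, 2 were lower at an unadjusted p under 0.05 and 0 higher (background 4.86% and 4.87%). Rps6 was at 482, 343, 337 and 356 FPKM in sham and 269.5, 172, 247 and 333 FPKM in IR, and Rps7 at 240.1 ± 28.1 and 164 ± 45.3 FPKM. In both genes all IR values lay below all sham values, with log2 fold changes of −0.47 and −0.46 (edgeR, adjusted p of 0.465 and 0.479). The median over the 6 was −0.33, against −0.43 for the 98 other genes matched to that list and 0.00 for all mRNAs. In translation and tRNA charging 2 of 8 were lower (Iars2 and Eif3l, background 4.86%) with a median of −0.18, and the 102 other genes of that list had a median of −0.17. The neighbours in both lists thus lay near the rest of their own list.

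RNA processing (16 tested, 2 lower against a background of 4.86%, median −0.09) was represented by Rbm3 and the helicase Ddx21. DNA replication, repair and cell cycle (15 tested, 2 lower against a background of 4.86%, median −0.17) was represented by Cdca4 and the clamp loader subunit Rfc5. The other genes of these lists had medians of −0.10 and −0.08. Of 29 genes of the proteasome and ubiquitin system 4 were lower (background 4.86%), Uspl1, Rnf4 and Usp36 among them, and the median was −0.01. Uspl1 acts on SUMO and Rnf4 attaches ubiquitin to SUMO chains. The 7 oxidative phosphorylation genes, among them Cox6a1 at 383 ± 22.6 and 388 ± 21.6 FPKM, had 0 at an unadjusted p under 0.05 and a median of −0.02. The same held for 3 mitochondrial ribosomal protein genes (median 0.01, against −0.14 for the 74 others of that list). It also held for 8 chaperone genes (median −0.05) and 19 genes matched to vesicle traffic (median 0.09). Among the last was the COPII coat gene Sec23a at 117 ± 9.45 and 126 ± 12.1 FPKM. None of these genes passed the edgeR test after adjustment.

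Among the regulators of transcription few neighbours had an unadjusted p under 0.05. Of 37 zinc finger genes tested 1 was higher at an unadjusted p under 0.05 (Zfp236, log2 fold change 0.25, background 4.87%), and of 16 chromatin regulators also 1 (Chd6, log2 fold change 0.22). The lncRNAs beside chromatin regulators, 9 of them tested, had a median log2 fold change of 0.54, none at an unadjusted p under 0.05, and their genes one of 0.05. Of 24 homeobox and other developmental factors only 5 were tested, with Klf6 at 53.8 ± 9.90 and 62.5 ± 11.1 FPKM and Sox9 at 2.13 ± 0.402 and 1.68 ± 0.354 FPKM. In kinase and phosphatase signalling (26 tested) 2 were higher (background 4.87%) and 2 lower (background 4.86%). The named ones with lower values were Prkrir and Pde12 and the one with higher values Pde7a, and both phosphodiesterases act on nucleotides and not on proteins.

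Of 18 membrane transporter genes 1 was lower (background 4.86%), Slc12a2, a sodium, potassium and chloride cotransporter (25.5 ± 4.01 and 17.98 ± 5.37 FPKM, log2 fold change −0.42, edgeR, adjusted p = 0.482). Slc9a2, a sodium-hydrogen exchanger of intestinal epithelium, was at 52.2 ± 11.5 and 62.4 ± 12.1 FPKM, and the fructose transporter Slc2a5 at 66.6 ± 12.8 and 75.2 ± 18.5 FPKM.

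Within the pairs, the lncRNA and its neighbour differed between IR and sham in the same direction in 139 of 239 (58.2%), with 68 both higher and 71 both lower. In the other classes of the table the share was 57.4% of 975 exon sense-overlapping, 62.6% of 163 intron sense-overlapping, 52.1% of 305 natural antisense and 47.5% of 99 intronic antisense pairs. Both partners were measured in the same libraries, so a shift of a library moves both, and the shares are given without a test. On the scale of log2(FPKM + 0.1), where the medians of all lncRNAs and all mRNAs shift by −0.09 and −0.10, the share was 66.5%.

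**Figure D5:**
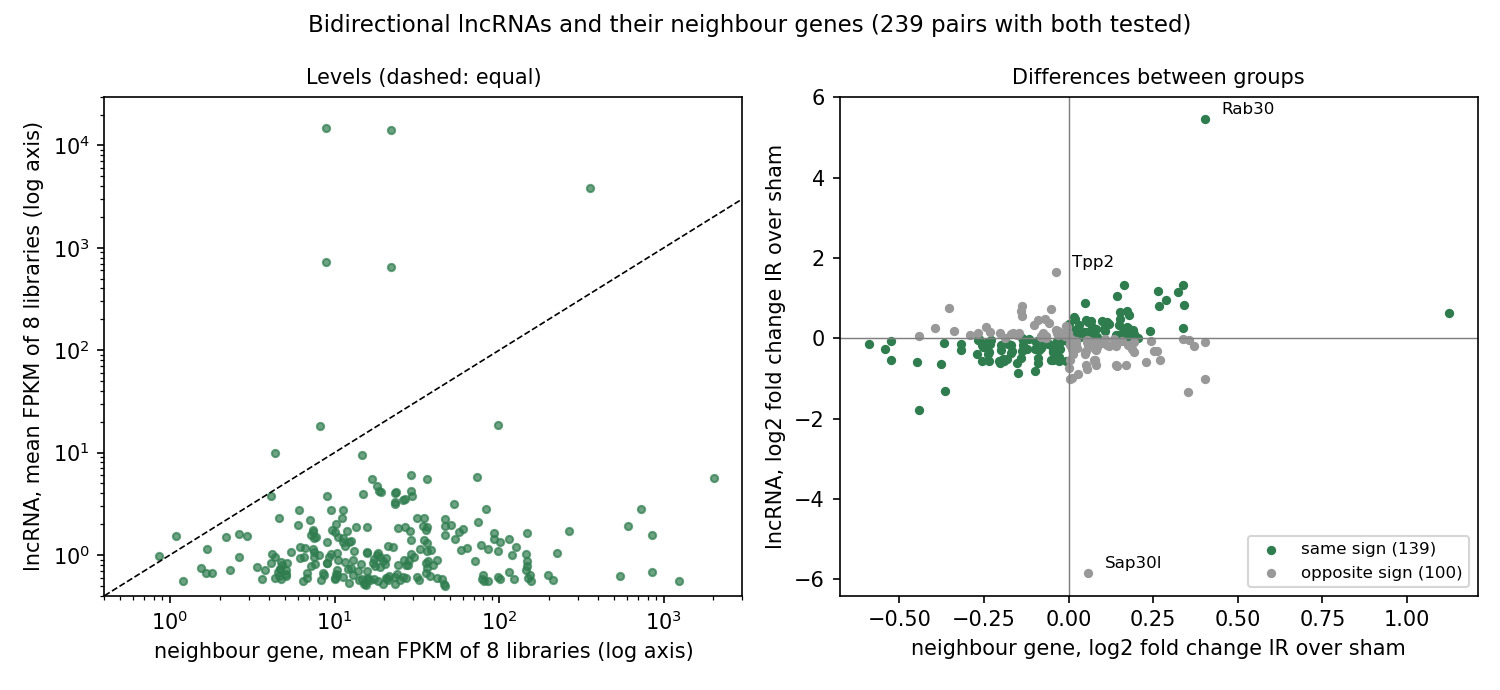
Left, mean FPKM over 8 libraries of each bidirectional lncRNA (y axis) against that of its neighbour gene (x axis), both on log axes, with a dashed line of equality. Right, log2 fold change of IR over sham of the lncRNA (y axis) against that of the gene (x axis), in green where both have the same sign (139 of 239 pairs) and in grey where not. Most points lie below the line of equality, and Rab30 and Sap30l carry the extreme lncRNA values.

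The ratio of lncRNA to gene was compared between the groups on the log2 scale with limma, with 0.1 FPKM added to both. No bidirectional pair passed at an adjusted p under 0.05 (0 of 239, background 0 of 1797 pairs, smallest adjusted p 0.674), and 12 (5.02%) had an unadjusted p under 0.05 (background 6.12%). The ratio was higher in IR for the lncRNAs beside Tpp2 (by 1.49), Hnrnpa3 (0.89), Bzw1 (0.81) and Fbxo48 (0.52), which encode a peptidase, an RNA-binding protein, a translation regulator and an F-box protein. It was lower beside Sap30l (−2.79), Dll4, a Notch ligand (−1.58), Dpf2, a chromatin remodelling subunit (−0.91), and Slc9a2 (−0.62). In each library the lncRNA beside Tpp2 rests on 1 to 6 fragments, that beside Hnrnpa3 on 5 to 13 and that beside Dpf2 on 8 to 30. Beside Dll4 the lncRNA ENSMUST00000147929 was at 0.703, 0.685, 0.751 and 1.80 FPKM in sham and 0, 0.199, 0 and 0.877 FPKM in IR, so that sham 4 and IR 4 were the highest of their groups and the groups overlapped. With the second entry at Dll4 (ENSMUST00000124439) added, the log2 fold change of the locus was −0.45 (edgeR, adjusted p = 0.834), beside −0.44 for Dll4 itself. Beside Fbxo48 the 8 entries summed had a log2 fold change of −0.23 (edgeR, adjusted p = 0.939). The largest ratio change, at Sap30l, is 1 of 4 entries at that gene, and the log2 fold change of the summed locus was −0.0035.

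Across the 8 libraries, lncRNA and gene levels were positively related more often than not. The correlation of log2(FPKM + 0.1) was above 0 in 179 of 239 pairs (74.9%) with a median of 0.291, and with the group means subtracted the median was 0.231. Medians in the other classes were 0.344 for intron sense-overlapping, 0.199 for exon sense-overlapping, 0.133 for natural antisense and 0.0280 for intronic antisense pairs. Among bidirectional pairs the median was 0.315 in the 149 whose starts lie within 300 bp and 0.185 in the 69 farther apart. It was 0.259 where the lncRNA was under 1 FPKM and 0.317 where it was at 1 FPKM or more. The pairs share their libraries, so these medians are descriptions.

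Single pairs were tested with an exact permutation of the 8 libraries (40320 orders, two-sided). Of 239 pairs 0 passed at an adjusted p under 0.05 (background 0.0556% of 1797 pairs), and 31 (13.0%) had an unadjusted p under 0.05 with r above 0 (background 11.6%) and 4 (1.67%) with r below 0 (background 3.78%). The closest pair was AK081893 and Wee1, 319 bp apart. Wee1 encodes the kinase that holds cells before mitosis. AK081893 was at 3.05, 0.598, 2.61 and 3.04 FPKM in sham and 1.16, 5.14, 0.661 and 1.41 FPKM in IR, and Wee1 at 10.0, 3.95, 7.02 and 7.41 FPKM in sham and 4.97, 14.5, 3.48 and 5.08 FPKM in IR.

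Both were highest in IR 2 and low in sham 2 and IR 3, and the values of both groups overlapped for both. Their r was 0.960 (exact permutation p = 0.000372, adjusted p = 0.0669) and their rho 0.976 (exact permutation p = 0.000397, adjusted p = 0.108). Without the 2 libraries farthest from the median of the lncRNA r was 0.949, and with the group means subtracted it was 0.960. Next came AK158099 and Sec14l1, a lipid-binding protein of the Golgi (r = 0.938, rho = 0.929, exact permutation adjusted p = 0.0971), and Gm17115 and the zinc finger gene Zfp871 (r = 0.909, rho = 0.905, exact permutation adjusted p = 0.0891). These lncRNAs rest on few fragments in each library, 9 to 22 for AK158099 and 2 to 29 for Gm17115. For ENSMUST00000101511 and Parp12, an interferon-inducible ADP-ribosyltransferase, r was 0.908 and rho 0.905 (exact permutation adjusted p = 0.110). Without the 2 farthest libraries r was 0.828, 0.804 and 0.936 in these 3 pairs.

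The lowest correlation was that of AK043809, which rests on 6 to 20 fragments in each library, and Setd4, a methyltransferase gene. AK043809 was at 0.325, 0.651, 0.498 and 0.603 FPKM in sham and 0.712, 0.921, 1.13 and 0.471 FPKM in IR, and Setd4 at 2.43, 1.38, 2.69 and 1.89 FPKM in sham and 0.800, 0.806, 1.02 and 2.14 FPKM in IR. The lncRNA was highest in IR 1 to 3, where Setd4 was lowest, and in IR 4 both were at sham levels. The r was −0.825 and rho −0.833 (exact permutation adjusted p = 0.195 for r), and with the group means subtracted r was −0.719. Wapal and Cyb5r3 and their lncRNAs had r of −0.784 and −0.760 (exact permutation adjusted p of 0.234 and 0.264) with rho of −0.762 and −0.786, and without the 2 farthest libraries r was −0.805 and −0.699.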

How the data were processed

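RNA labelled as that of cardiac EVs from 4 sham and 4 IR mice, 1 library per mouse, was sequenced as stranded paired-end libraries without rRNA. Per the methods of the study, adaptors were removed with cutadapt (version 1.9.3), reads were placed on mm10 by HISAT2 and expression was computed by Cuffdiff. The versions of the last 2 tools, the annotation and the strand setting of the counting are not given in the sources used here. The deposited FPKM are Cuffdiff's values, which relate fragments to the length of the transcript and the size of the library. The relation to length was not strictly proportional, as the factors of the short entries given above show. The estimated counts were deposited by the authors after multiplication with a factor for each library. They were divided by the most frequent value of a library (0.763 to 1.18) and rounded to whole fragments, and below 200 fragments 92.2 to 92.6% of the mRNA values and 63.9 to 64.9% of the lncRNA values were whole within 0.02. The tables hold no p-values, and no column of single libraries was left unmapped.

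Identifiers listed several times with equal values were kept once, and 70 mRNA genes with different values were summed. edgeR 4.0.16 in R 4.3.3 (TMM scaling, quasi-likelihood F test, two-sided) compared IR with sham over all 3088 lncRNAs and all 12716 mRNAs with a mean of at least 0.5 FPKM. Benjamini-Hochberg adjustment ran over all features tested. Features were called at a fold change over 2 with an adjusted p under 0.05, the thresholds of the study's methods. SE of a log2 fold change is its size divided by the square root of F. TMM factors were 0.704 (IR 3) to 1.41 (IR 1) for lncRNAs and 0.886 to 1.09 for mRNAs, and the biological coefficient of variation was 47.2% and 22.0%. On simulated counts with 200 features changed 4-fold, 60% were recovered among 3088 lncRNAs and 92% among 12716 mRNAs. Libraries of a group differed by 15.8 to 77.7 (mRNAs) and 18.8 to 244 (lncRNAs) times the counting variance, so each library counted as a separate sample. Pair ratios used limma 3.58.1 on log2(FPKM + 0.1), and correlations an exact permutation test with a smallest possible p of 2.48e-05, both adjusted over 1797 pairs of all classes. DESeq2 1.42.0, no filter, median-ratio scaling, limma on log2(FPKM + 0.1) and log2(FPKM + 1), a replicate block and leaving out each library were alternatives.

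The motifs were searched on both strands. Positions came from GENCODE M21 and RefSeq identifiers on mm10, or else from the locus of the table if it lay outside the neighbour gene. Bases were read with samtools 1.23.1. A RefSeq promoter table matched 77.2% of the neighbours, under the minimum of 80%, so composition was taken from lncRNA starts and a check of neighbour promoters was void. The text names the 5 lncRNAs and 5 neighbours with the smallest p in each direction, the 10 highest lncRNAs, those on the target list of the study, the 4 extreme pairs of each kind, well-known lncRNAs, and up to 3 genes of each role. A pair that this rule names is not reported here. LncRNAs outside this rule were named where a count of 9 pairs or the minimum for testing singled them out, after their values were seen. The members and lists were chosen with earlier results of these data known. Python 3.11.15, numpy 2.4.6, pandas 2.3.3, scipy 1.17.1 and matplotlib 3.10.9 were used.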

Additional observations from a re-analysis of the deposited data

Results flagged for a closer look

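In groups of 4 libraries, the highest or lowest library was compared with the others by the gap to its nearest neighbour divided by the range of the group (Dixon's ratio). Of 228 groups looked at, 20 (8.77%) exceeded its 95% critical value, where chance gives about 1 in 20 groups. No cause was tested.

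Among the lncRNAs, sham 1 stood apart in NR_002142 (Rpph1, 1155 FPKM, ratio 0.838) and sham 4 in ENSMUST00000147929 beside Dll4 (1.80 FPKM, ratio 0.940). IR 3 stood apart in TCONS_00017759 beside Hnrnpa3 (1.07 FPKM, ratio 0.889), and IR 2 in AK158099 beside Sec14l1 (1.07 FPKM, ratio 0.901) and in AK081893 beside Wee1 (5.14 FPKM, ratio 0.833).

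Among the neighbour genes, sham 1 was the high library in 6 of translation, RNA and mitochondrial function. These were Rps6 (482 FPKM, ratio 0.867), Mrps31 (23.5 FPKM, ratio 0.916), Iars2 (18.6 FPKM, ratio 0.847), Etf1 (48.0 FPKM, ratio 0.832), Ddx21 (22.7 FPKM, ratio 0.904) and Snrpe (47.5 FPKM, ratio 0.845). Sham 2 was high in Ccbe1 (1.81 FPKM, ratio 0.901) and Parp12 (89.2 FPKM, ratio 0.978), and sham 3 was low in Taf4a (8.83 FPKM, ratio 0.926).

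IR 2 was high in Sypl2 (4.35 FPKM, ratio 0.931) and Wee1 (14.5 FPKM, ratio 0.855) and low in 1810009A15Rik (9.42 FPKM, ratio 0.854). IR 1 was high in Gm21685 (0.641 FPKM, ratio 0.970), IR 3 in Tinag (18.1 FPKM, ratio 0.884) and IR 4 in Setd4 (2.14 FPKM, ratio 0.833).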

How the results depend on the processing

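The comparisons rest on 4 libraries per group and a median of 190 fragments per tested member. Under DESeq2, 2 members were called higher, and 1 neighbour gene was called higher and 1 lower. With unadjusted p and a fold change over 2, 4 members were higher and 1 lower, and 5 neighbours were higher and 2 lower. Without the filter, 35 members, 53 pair ratios and 73 correlations had an unadjusted p under 0.05, against 12, 12 and 35, and the median correlation was 0.122. With group means subtracted it was 0.231. The same-sign share was 66.5% with log2(FPKM + 0.1) and 64.4% with log2(FPKM + 1). The summing of entries per gene was chosen after seeing the data. The causes were not tested.

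Leaving out 1 library at a time, members at an unadjusted p under 0.05 numbered 7 (without IR 2) to 18, and neighbour genes 42 (without sham 1) to 91, with 43 without IR 1. Pair ratios numbered 10 to 18, and 0 to 1 of them were called (Sap30l, without sham 1). Correlations numbered 22 (without sham 4) to 32, with medians of 0.263 (without IR 1) to 0.336 (without sham 4), and the same-sign share was 54.4 to 62.8%.

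Replicate numbers did not pair the libraries, since the correlations of same-numbered libraries were −0.0141 to 0.0936 for lncRNAs and −0.289 to 0.0499 for mRNAs, and 2 lncRNA libraries and 0 mRNA libraries correlated best with their own number. With the replicate block 0 members and 0 neighbours were called, 8 members, 55 neighbours and 12 pair ratios had an unadjusted p under 0.05, the same-sign share was 59.0%, and the block reversed NR_002321 (−0.015), Rab30 (−0.017) and Wee1 (−0.13).

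The other reversed signs belonged to results of which none was called. Their log2 fold changes with log2(FPKM + 0.1) and log2(FPKM + 1) were −0.058 and −0.052 for Cherp, −0.036 and −0.018 for ENSMUST00000181112, −0.095 and −0.090 for Mrps31, −0.11 and −0.10 for NR_002321, −0.0077 and −0.0013 for Rab30, −0.037 and −0.036 for Sap30l, −0.098 and −0.090 for Taf4a, −0.10 and −0.099 for Tle1, −0.090 and −0.089 for Txnip, −0.033 and −0.032 for Wapal, −0.17 and −0.14 for Wee1 and −0.056 and −0.054 for Zfp871. NR_002321 was also at −0.026 without the filter, −0.0069 with median-ratio scaling and −0.0072 with DESeq2, and Mrps31 at −4.9e-05 without the filter. Leaving out 1 library gave −0.382 to 0.076 for AK008951, −1.05 to 0.275 for AK081893, −0.297 to 0.10 for Acaa2, −0.075 to 0.13 for Cherp, −0.243 to 0.018 for Cyb5r3, −0.229 to 0.024 for Dnajc11, −0.338 to 0.22 for ENSMUST00000130392, −0.0073 to 0.12 for ENSMUST00000181112, −0.13 to 0.0079 for Fam53a, −0.098 to 0.071 for Mrpl54, −0.039 to 0.084 for Mrps31, −0.14 to 0.089 for NR_002321, −0.079 to 0.359 for Parp12, −0.485 to 0.68 for Rab30, −0.041 to 0.13 for Sap30l, −0.068 to 0.11 for Taf4a, −0.18 to 0.21 for Tle1, −0.13 to 0.033 for Tpp2, −0.12 to 0.15 for Txnip, −0.595 to 0.362 for Wee1 and −0.082 to 0.213 for Zfp871.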
